A study of Oryza sativa with 6 samples.

Results

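The 6 genes described here are rice loci of innate immunity and of the salicylate branch of defence. They were taken by their locus identifiers, given below with each gene, from a table of 37863 loci. No measured value entered that choice, but it was made with earlier results of these data known. The genes are PBZ1, PR1a and PR1b, which encode pathogenesis-related (PR) proteins, NPR1 and WRKY45, which encode regulators of the salicylate response, and CEBiP, which encodes a receptor for chitin. In a RefSeq gene table, PBZ1, NPR1 and CEBiP lie on the chromosome that the identifier names and at a like place along it. The names PR1a, PR1b and WRKY45 were not matched there and rest on the list of identifiers alone.

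Root tips of rice (Oryza sativa, cultivar Kitaake) were sampled in boxes shared with Azolla filiculoides, a floating water fern (co-cultivated, R+Af), and in boxes without the fern (control, R). Seedlings of both groups were 13 days old when they went into boxes of 4 plants with about 5 L of Yoshida's nutrient solution, and tips of at most 1 cm were taken at 15 DAT, as the labels write it. Each group held 3 libraries, called biological replicates in the labels, with boxes as the unit. The water surface of control boxes was covered to keep algae out, while the walls of all boxes were wrapped in foil and none was aerated; effects of the fern and of that cover cannot be told apart. The comparison asks whether defence transcripts stood at another level in roots that grew under the fern.

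Plants detect fungal chitin through receptors with LysM domains; in rice, CEBiP binds chitin fragments at the cell surface and signals together with the receptor kinase CERK1. Salicylate, a defence hormone, acts in rice through a pair of parallel branches, one led by the coactivator NPR1 and the other by the transcription factor WRKY45. Downstream of such signals lie the PR genes, whose products are secreted or intracellular proteins that accumulate on infection, wounding or stress, and which are widely used as readouts of defence. Rice leaves hold much salicylate even without infection, and PR genes are known to be active in roots as well as in leaves.

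Library totals ran from 23477086 to 25120456 estimated counts in the co-cultivated group and from 21551508 to 23703813 in the control group. Levels below are CPM (a locus's count relative to the library's total) scaled with TMM factors, and means carry the SD over 3 libraries. Fold changes come from edgeR's quasi-likelihood fit over all 24615 tested loci and are co-cultivated over control; a locus counts as called when its Benjamini-Hochberg adjusted p is under 0.05. Of all tested loci, 2.63% were called, 1.46% as higher and 1.17% as lower in co-cultivated roots. Each edgeR p-value sets the group difference against the spread between boxes of a group, estimated with information shared over all tested loci. Of the 6 genes, 5 were tested, and 0 of these 5 were called by edgeR, DESeq2 or limma-voom. Over all tested loci, DESeq2 called 5.95% higher and 3.84% lower, and limma-voom 1.26% and 1.02%. In edgeR, 0 of 5 had an unadjusted p under 0.05, beside 20.4% of all tested loci. The groups overlapped for all 5 genes. Non-overlapping groups were found at 12.4% of all tested loci with co-cultivated higher and at 15.3% with co-cultivated lower. Counts of 0 among so few genes do not separate them from all tested loci. What set these genes apart from one another was how much they varied between boxes of the same treatment.

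PBZ1 (Os12g0555500, on chromosome 12) encodes an intracellular protein of the PR10 family, first known as a transcript that probenazole, a compound that primes rice against blast disease, induces. Co-cultivated replicates 1, 2 and 3 held 561, 74 and 9053 counts of it, and the control replicates held 280, 571 and 553 counts. In CPM these are 24.8, 2.98 and 357 in the co-cultivated libraries and 12.2, 26.3 and 23.3 in the control libraries. Co-cultivated replicate 1 thus lay within the control range, replicate 2 lay below every control library and replicate 3 far above them. The highest co-cultivated level was 119.9 times the lowest, whereas the highest control level was 2.15 times the lowest. Counting error is small beside this: the exact 95% Poisson interval of the 74 counts ran from 58.1 to 92.9, and that of the 9053 counts from 8867.5 to 9241.4; such intervals cover counting error alone. PBZ1 averaged 128 ± 199 CPM in co-cultivated roots and 20.6 ± 7.41 CPM in control roots (SD, n = 3 each). The log2 fold change was 2.64 ± 1.39 (SE, edgeR adjusted p = 0.332), with a 95% interval from −0.63 to 5.91, that is from 0.646-fold to 60.2-fold. This positive value rested on a single library: without co-cultivated replicate 3 the log2 fold change was −0.58. With limma-voom it was 0.62 over all 6 libraries, and over all alternatives the adjusted p ran from 0.180 to 0.859.

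PR1a (Os07g0129200, chromosome 7) is listed as the acidic PR1 protein gene, a common marker of the salicylate response. It held 7087, 2098 and 11524 counts in the co-cultivated libraries and 4804, 3383 and 10753 counts in the control libraries, in the order of replicates 1, 2 and 3. The levels were 314, 84.5 and 455 CPM beside the fern and 209.5, 155.5 and 454 CPM without it. Co-cultivated replicate 2 was again the lowest of the 6 libraries and replicate 3 the highest, but control replicate 3 stood at nearly the level of co-cultivated replicate 3. Means were 284 ± 187 CPM in co-cultivated roots and 273 ± 159 CPM in control roots (SD, n = 3 each). The log2 fold change was 0.06 ± 0.62 (SE, edgeR adjusted p = 0.967), and its 95% interval of 0.380-fold to 2.86-fold leaves room for a change of more than 2-fold either way. Its sign depended on the libraries that entered. Leaving out co-cultivated replicate 3 gave −0.46, leaving out co-cultivated replicate 2 gave 0.49, and leaving out control replicate 3 gave 0.64.

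PR1b (Os01g0382000, chromosome 1), listed as the basic PR1 protein gene, held 0 counts in all 6 libraries and was not tested. A count of 0 allows a level of up to 0.119 to 0.128 CPM in the co-cultivated libraries and up to 0.127 to 0.139 CPM in the control libraries, taking 3 counts of each library's total as the limit. The acidic and the basic PR1 loci therefore differed in whether any reads were assigned to them in these root tips.

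**Figure D1:**
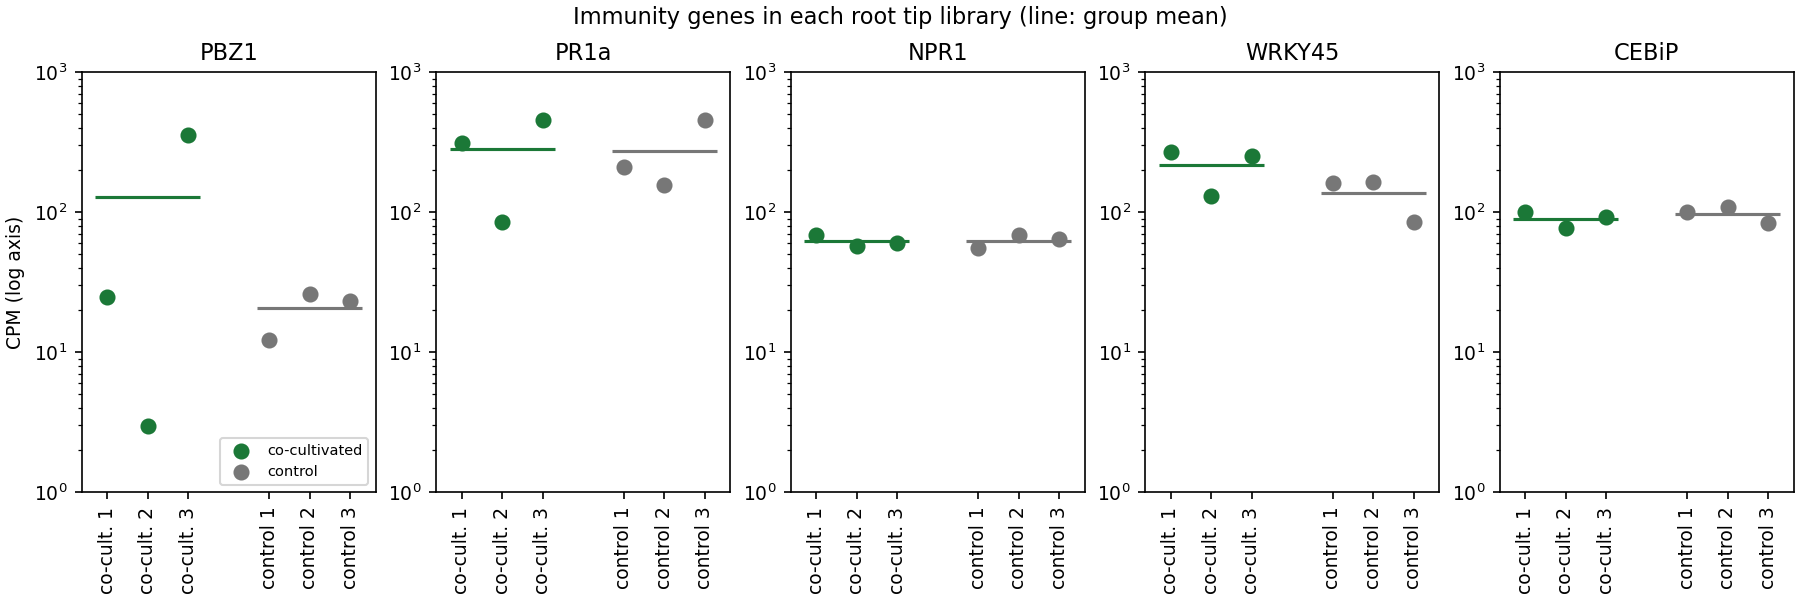
Level of each of the 5 tested genes in every library, as CPM on a log axis, with co-cultivated libraries (green) left of control libraries (grey) and a line at each group's mean. PBZ1 runs from 2.98 to 357 CPM over the co-cultivated boxes and from 12.2 to 26.3 CPM over the control boxes, while NPR1 and CEBiP stay within a narrow band in both groups.

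Both tested PR genes lie among neighbours with adjacent identifiers. Between Os12g0554800 and Os12g0555600 the table holds 8 loci, of which 6 were tested. The loci named from here to the end of this paragraph were singled out after their values were seen, and are given without names. Os12g0555000 had 267, 19.1 and 453 CPM in co-cultivated replicates 1, 2 and 3, against 38.4, 65.8 and 70.0 CPM in the control libraries. Os12g0555200 had 211, 21.7 and 239.5 CPM beside the fern, against 31.6, 74.9 and 49.7 CPM without it. At both loci, as at PBZ1, co-cultivated replicate 2 was the lowest of the 6 libraries and replicate 3 the highest, but replicate 1 also lay above every control library, which PBZ1 did not show. Their log2 fold changes were 2.08 and 1.60 (adjusted p = 0.254 and 0.295 in edgeR). Other loci of the stretch went against that order. Os12g0555100 had 69.5, 14.2 and 17.5 CPM in the co-cultivated libraries and 3.88, 11.2 and 1.31 CPM in the control libraries, so replicate 1 was highest and the groups did not overlap (edgeR adjusted p = 0.158). Os12g0554800 had 17.8, 32.6 and 16.9 CPM beside the fern and 13.2, 20.9 and 8.61 CPM without it, with co-cultivated replicate 2 the highest library. The flanking locus Os12g0555600 was nearly level, with 48.7, 56.2 and 42.1 CPM in the co-cultivated libraries and 47.1, 53.9 and 32.4 CPM in the control libraries.

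The stretch from Os07g0124900 to Os07g0129300 around PR1a holds 17 loci, of which 16 were tested. Of the 17, 9 fell into 3 sets of 3 loci whose estimated counts were identical in every library, so the loci of a set cannot be told apart. PR1a itself held whole counts in every library and shared its values with no other locus of the stretch. Counting each set once left 10 distinct profiles, PR1a included. Of these, 9 had co-cultivated replicate 2 as the lowest co-cultivated library, as did 36.2% of all tested loci. This order was chosen for counting after the values of PBZ1 were seen. At Os07g0128800 (18, 16 and 18 co-cultivated counts) and Os07g0127700 (34, 27 and 49) it rests on few counts and may reflect counting error. Os07g0127600, counted as a profile of its own, also held estimated counts that were not whole, so its reads may have been shared with a similar locus. Next to PR1a, Os07g0129300, a locus singled out after its values were seen, varied more than PBZ1: the co-cultivated libraries held 2415, 44 and 7415 counts, and the control libraries 183, 171 and 307 counts. Its highest co-cultivated level was 165 times the lowest, and its fold change was 13.9-fold with a 95% interval of 1.57 to 123.8 and overlapping groups (edgeR adjusted p = 0.174). None of the distinct profiles in either stretch was called by edgeR, DESeq2 or limma-voom, with 3 of 10 around PR1a and 1 of 6 around PBZ1 at an unadjusted edgeR p under 0.05, beside 20.4% of all tested loci.

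**Figure D2:**
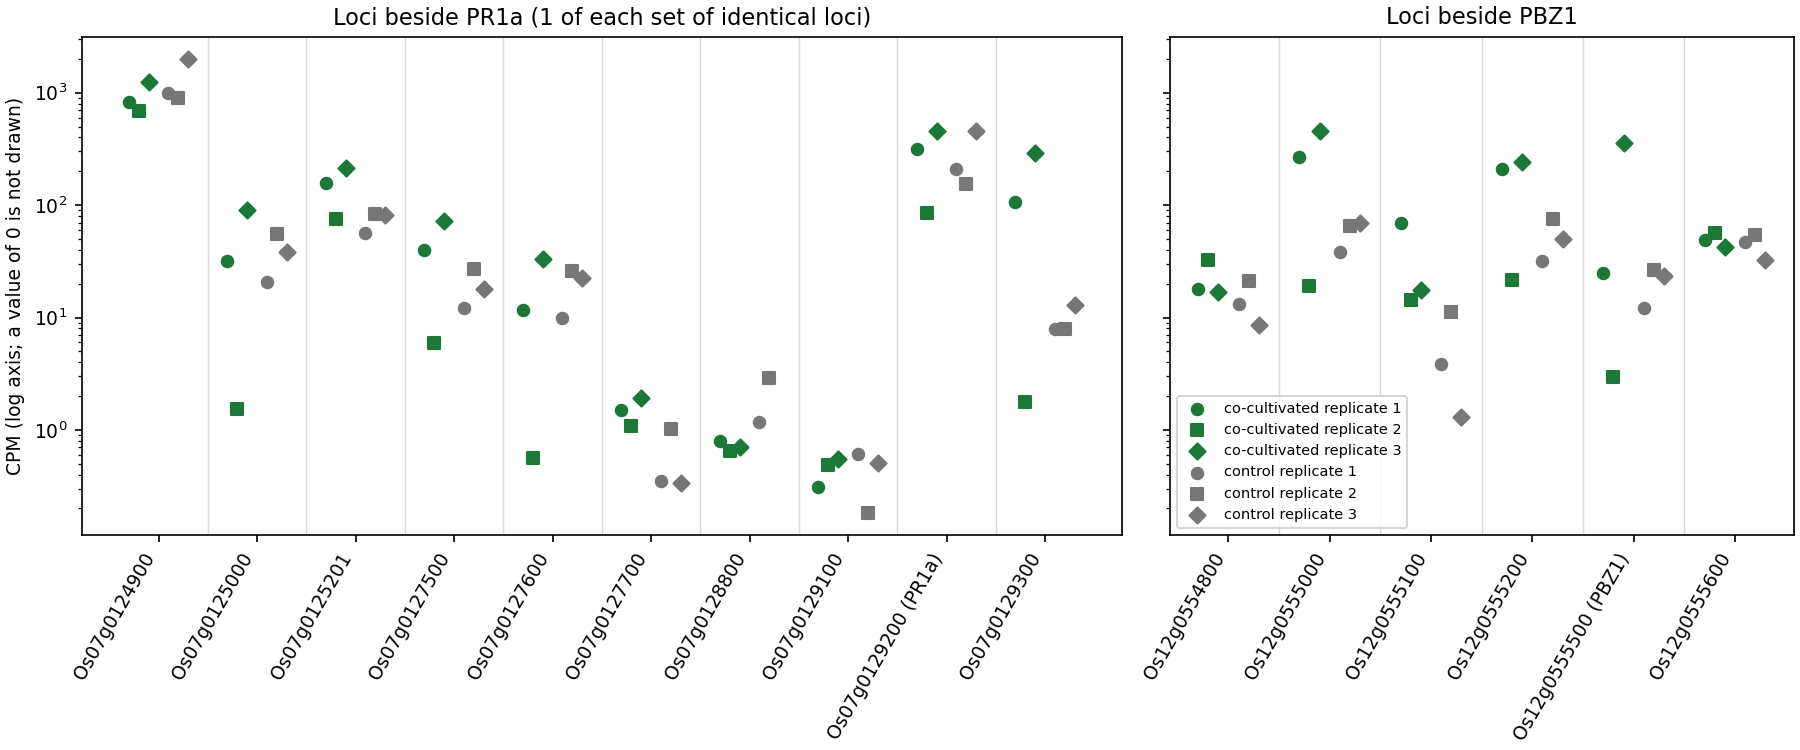
Levels in CPM (log axis) of the tested loci whose identifiers lie next to PR1a (left panel) and PBZ1 (right panel), with the co-cultivated libraries in green to the left of the control libraries in grey; circles, squares and diamonds stand for replicates 1, 2 and 3. The green square, co-cultivated replicate 2, is the lowest of the green points for 9 of 10 profiles in the left panel and 4 of 6 in the right panel. These counts include PR1a and PBZ1 themselves, and 36.2% of all tested loci have this order.

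WRKY45 (Os05g0322900, chromosome 5) is listed as the transcription factor that leads the NPR1-independent salicylate branch in rice. Its levels were 269, 130.3 and 253 CPM in co-cultivated replicates 1, 2 and 3 and 162, 164 and 85.2 CPM in control replicates 1, 2 and 3. Co-cultivated replicates 1 and 3 lay above all control libraries, whereas replicate 2 fell between them. The mean was 218 ± 76.0 CPM in co-cultivated roots and 137 ± 45.2 CPM in control roots (SD, n = 3 each), or 0.66 ± 0.35 higher on the log2 scale (SE, edgeR adjusted p = 0.332), with a 95% interval of 0.896-fold to 2.80-fold. The direction held in every fit that left out 1 library, with log2 fold changes from 0.41 to 0.93, and in those fits the adjusted p was at least 0.214. Without co-cultivated replicate 2, WRKY45 and PBZ1 had an unadjusted edgeR p of 0.0207 and 0.0137, with adjusted p of 0.214 and 0.180. No other fit that left out 1 library gave any of the 5 tested genes an unadjusted p under 0.05. In those other fits the unadjusted edgeR p ran from 0.0824 to 0.263 for WRKY45 and from 0.0701 to 0.4915 for PBZ1.

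NPR1 (Os01g0194300, chromosome 1), the salicylate coactivator, hardly varied. It held 1546, 1419 and 1530 counts in the co-cultivated libraries and 1265, 1494 and 1514 counts in the control libraries. Scaled to CPM, the means were 62.0 ± 5.78 in co-cultivated roots and 62.6 ± 6.86 in control roots (SD, n = 3 each). Its log2 fold change was −0.014 ± 0.15 (SE, edgeR adjusted p = 0.968), and the 95% interval of 0.782-fold to 1.26-fold does not reach a 1.5-fold change in either direction. The sign of so small a value had no stability: it was positive with RLE size factors, with DESeq2, and on leaving out replicate 2 or 3 of either group.

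CEBiP (Os03g0133400, chromosome 3), the chitin-binding receptor, had 99.6, 76.8 and 92.9 CPM in co-cultivated replicates 1, 2 and 3 and 99.99, 108 and 83.4 CPM in control replicates 1, 2 and 3. The groups overlapped, and co-cultivated replicate 2 was once more the lowest library. Means were 89.8 ± 11.7 CPM in co-cultivated roots and 97.2 ± 12.6 CPM in control roots (SD, n = 3 each), giving −0.11 ± 0.16 on the log2 scale (SE, edgeR adjusted p = 0.739), with a 95% interval of 0.707-fold to 1.21-fold. In bulk tissue, fewer cells of a type and less RNA per cell cannot be told apart, for this receptor as for every gene here.

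The spread between boxes thus differed greatly among the 5 tested genes. The SD of log2 CPM over the co-cultivated libraries was 3.44 for PBZ1, 1.27 for PR1a, 0.58 for WRKY45, 0.19 for CEBiP and 0.13 for NPR1, against a median of 0.231 over all tested loci. PBZ1 stood at percentile 99.96 of this spread among all tested loci and PR1a at percentile 98.3. NPR1 stood at percentile 25.8 and CEBiP at percentile 41.7, so both varied less than the median locus, CEBiP only somewhat less. These percentiles are among loci of all abundances, and spread was not compared among loci of like abundance. Over the control libraries the SDs were 0.59 for PBZ1, 0.80 for PR1a, 0.54 for WRKY45, 0.19 for CEBiP and 0.16 for NPR1, against a median of 0.322. There PBZ1 stood at percentile 78.2 and PR1a at percentile 88.3. Whether the spread of a gene differed between the treatments was not tested, since each SD rests on 3 libraries.

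**Figure D3:**
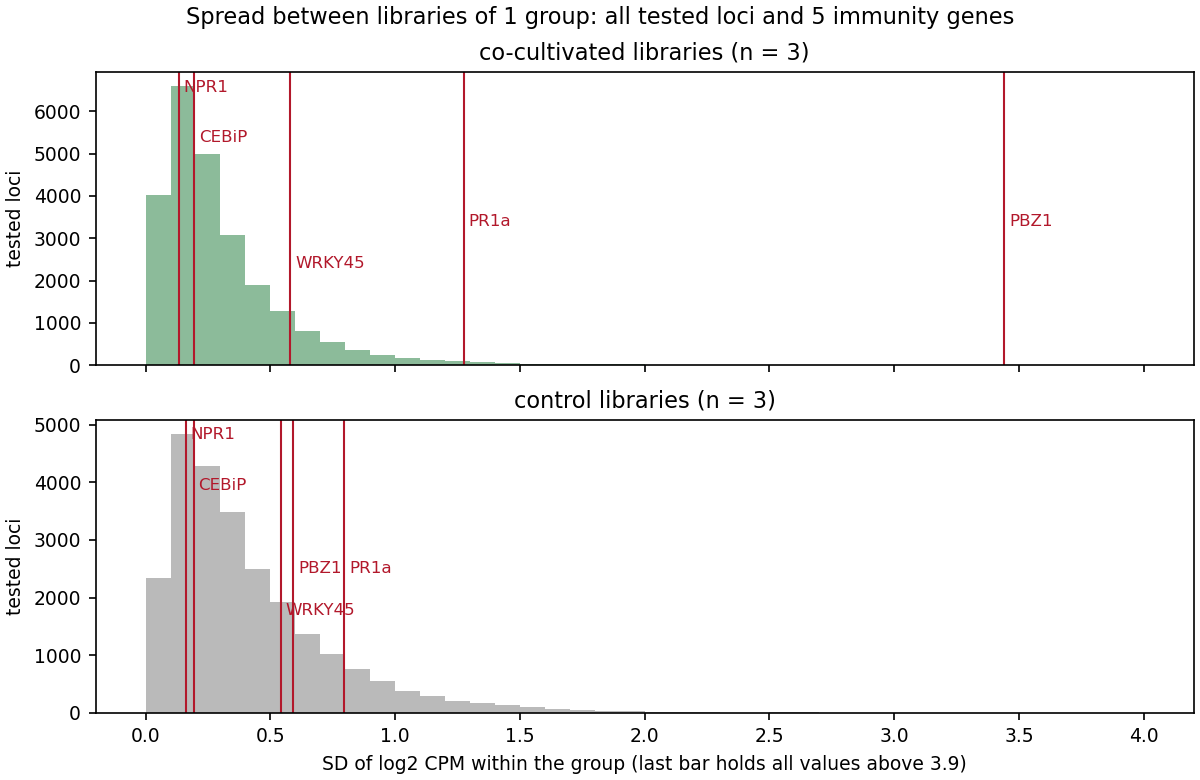
Histograms of the SD of log2 CPM within the co-cultivated group (upper panel) and the control group (lower panel) over all tested loci, with red lines at the 5 tested immunity genes. PBZ1 lies at 3.44 in the co-cultivated group, far out in the tail, and at 0.59 in the control group, while NPR1 and CEBiP lie near the bulk of loci in both.

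The wider pathway was followed with 43 further loci listed for chitin perception and early signalling, resistance protein signalling, salicylate metabolism and signalling, defence WRKY factors and PR effectors. The names of 20 were matched in the gene table; the other 23 are counted but not named. Of the 43, 42 were tested and 0 were called by edgeR, against 2.63% of all tested loci. At an unadjusted p under 0.05, edgeR gave 5 higher and 4 lower, while 10.2% of all tested loci were higher and 10.2% lower at that threshold. DESeq2 called 4 higher and 2 lower, beside 5.95% and 3.84% of all tested loci, and limma-voom called 0, beside 1.26% and 1.02%. The median log2 fold change over the 42 was 0.31, with 28 positive and 14 negative. Over all tested loci the median was −0.03, and 47.3% had a positive fold change. When 1 library was left out, edgeR called 1 higher on dropping co-cultivated replicate 2, 2 lower on dropping control replicate 2, and 0 in the other such fits.

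In chitin perception, 10 loci were tested, 6 with a positive fold change, beside 47.3% of all tested loci. Of the 10, 0 were called by edgeR or limma-voom and 2 were higher by DESeq2, with 2 higher at an unadjusted edgeR p under 0.05. Of all tested loci, 5.95% were called higher by DESeq2 and 10.2% were higher at that edgeR threshold. CERK1, the receptor kinase that works with CEBiP, averaged 82.0 ± 10.98 CPM in co-cultivated roots and 85.4 ± 8.55 CPM in control roots (SD, n = 3 each), or −0.06 on the log2 scale (edgeR adjusted p = 0.869). LYP4, a LysM protein that binds both chitin and peptidoglycan in rice, had 21.1, 46.4 and 28.4 CPM in co-cultivated replicates 1, 2 and 3 and 18.7, 12.8 and 7.34 CPM in control replicates 1, 2 and 3. For LYP4 the groups did not overlap, and in contrast to the PR genes its highest value was in co-cultivated replicate 2. Its log2 fold change of 1.31, with a 95% interval from 0.36 to 2.25, missed the threshold (edgeR adjusted p = 0.135), while DESeq2 gave an adjusted p of 0.0216 and the alternatives together ran from that value to 0.296. The MAP kinase gene MPK6 was level at −0.0018 on the log2 scale, with a 95% interval from −0.33 to 0.33, and RBOHB, an NADPH oxidase gene of the oxidative burst, stood at 0.25 (adjusted p = 0.996 and 0.478 in edgeR).

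Among the 4 resistance signalling loci tested, RAR1, a co-chaperone of immune receptors, had 29.0, 28.5 and 29.4 CPM in the co-cultivated libraries and 35.0, 44.8 and 38.6 CPM in the control libraries. Every co-cultivated value of RAR1 lay below every control value, yet its log2 fold change of −0.45 missed the threshold (edgeR adjusted p = 0.145). SGT1, its partner, stood at 0.08 (edgeR adjusted p = 0.819). In the other direction, Os11g0195500 had 271, 165 and 222 CPM in the co-cultivated libraries and 174, 92.9 and 104 CPM in the control libraries, with overlapping groups and 0.83 on the log2 scale (edgeR adjusted p = 0.174). RAR1 and this locus were the 1 lower and 1 higher of this role at an unadjusted edgeR p under 0.05, and 0 of the 4 were called by edgeR, DESeq2 or limma-voom. At that unadjusted threshold 10.2% of all tested loci were higher and 10.2% lower. Of the 7 salicylate loci tested, 5 had a positive and 2 a negative fold change, beside 47.3% positive over all tested loci. Of all tested loci, DESeq2 called 3.84% lower, and 10.2% were lower at an unadjusted edgeR p under 0.05. In this role 0 were called by edgeR or limma-voom, DESeq2 called 1 lower, and the same number was lower at that unadjusted threshold. That locus, Os09g0518200, had 10.6, 13.0 and 14.7 CPM in the co-cultivated libraries and 50.3, 13.6 and 63.5 CPM in the control libraries, with overlapping groups. It stood at −1.74 on the log2 scale (edgeR adjusted p = 0.123, DESeq2 adjusted p = 0.00932, and 0.00567 to 0.347 over the alternatives). ICS1, listed for isochorismate synthase, an enzyme of salicylate synthesis in other plants, averaged 18.2 ± 4.49 CPM beside the fern and 11.3 ± 5.12 CPM without it (SD, n = 3 each), with overlapping groups and a difference of 0.69 on the log2 scale (edgeR adjusted p = 0.300). NPR2 and NPR3, homologues of NPR1, stood at 0.30 and 0.43 on the log2 scale (adjusted p = 0.461 and 0.441 in edgeR), and the estimated counts of NPR3 were not whole, so its reads may have been shared with a similar locus. TGA2.1, a bZIP factor that binds NPR1, stood at −0.17 (edgeR adjusted p = 0.563).

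**Figure D4:**
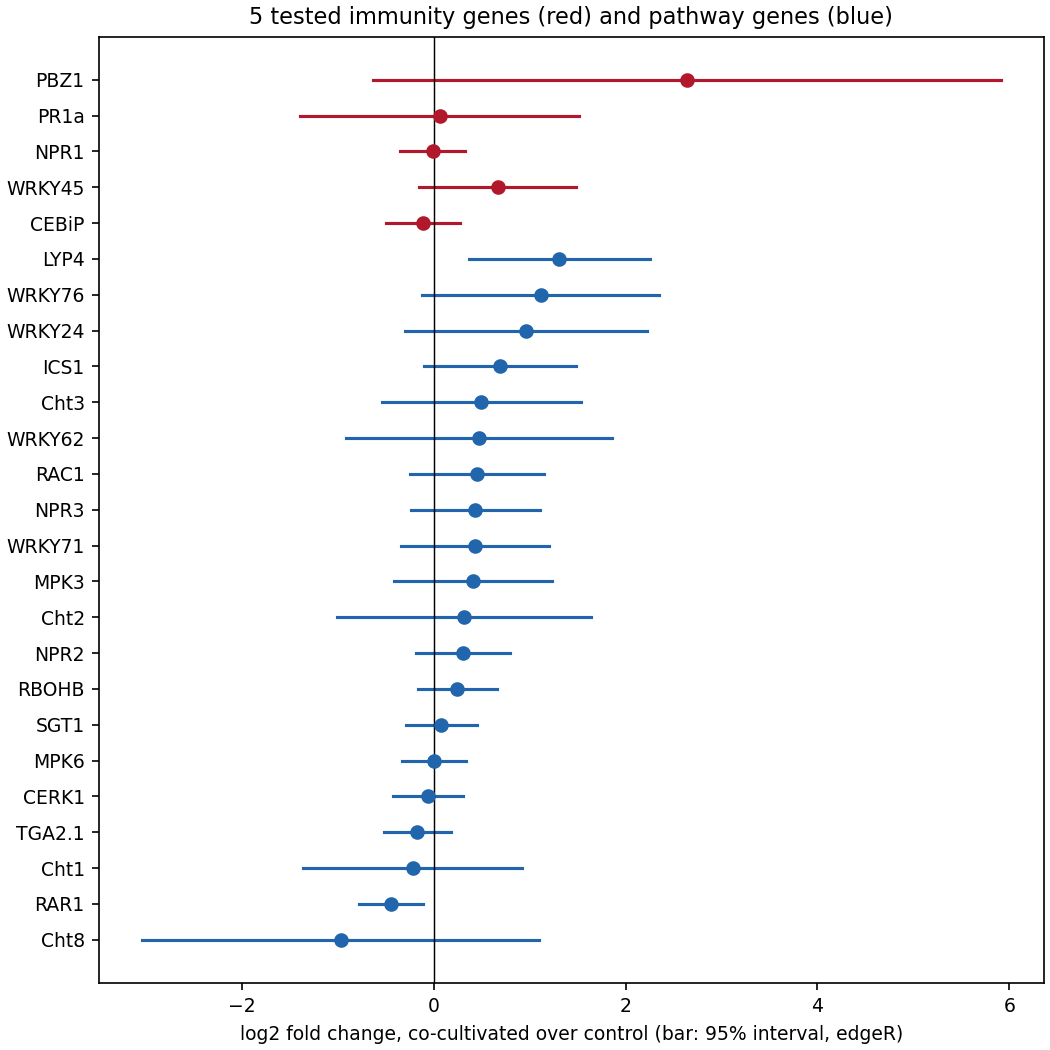
Log2 fold changes, co-cultivated over control, with 95% intervals from edgeR for the 5 tested immunity genes (red) and the 20 pathway genes with a matched name (blue, in order of fold change). The interval of PBZ1 runs from −0.63 to 5.91 and that of NPR1 from −0.36 to 0.33; those of LYP4 and RAR1 leave out 0 but their adjusted p of 0.135 and 0.145 missed the threshold.

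Of the 9 defence WRKY loci tested, 7 had a positive fold change, beside 47.3% of all tested loci. Co-cultivated replicate 2 was the lowest co-cultivated library at 8 of the 9. That pattern was chosen for counting after the values of PBZ1 were seen, and 36.2% of all tested loci held it. WRKY62, a repressor of defence in rice, had 25.9, 5.72 and 39.8 CPM in co-cultivated replicates 1, 2 and 3, against 13.5, 21.2 and 17.0 CPM in the control libraries. WRKY76, likewise known as a repressor, had 98.5, 31.2 and 109 CPM beside the fern and 49.5, 43.0 and 18.0 CPM without it. WRKY24 had 215, 40.1 and 165 CPM in the co-cultivated libraries and 89.3, 58.0 and 69.0 CPM in the control libraries. For WRKY62, WRKY76 and WRKY24 alike, co-cultivated replicates 1 and 3 lay above all control libraries and replicate 2 did not. WRKY71, the other WRKY gene with a matched name, did not share this order, with 811, 409 and 622 CPM in the co-cultivated libraries and 639, 369 and 364 CPM in the control libraries. The log2 fold changes of WRKY62, WRKY76, WRKY24 and WRKY71 were 0.47, 1.11, 0.96 and 0.43 (adjusted p = 0.698, 0.285, 0.360 and 0.513 in edgeR). Of all tested loci, DESeq2 called 5.95% higher, and 10.2% were higher and 10.2% lower at an unadjusted edgeR p under 0.05. In this role 0 loci were called by edgeR or limma-voom, DESeq2 called 1 higher, and 1 was higher and 1 lower at that unadjusted threshold. Those are Os06g0649000 at 1.35 and Os08g0499300 at −1.03 on the log2 scale (adjusted p = 0.165 and 0.143 in edgeR).

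The 12 further PR effector loci all had co-cultivated replicate 2 as the lowest co-cultivated library, beside 36.2% of all tested loci. In 9 of the 12 it was the lowest of all 6 libraries, in 8 co-cultivated replicate 3 was the highest of all 6, and in 7 both held. The 12 include Os12g0555000 and Os12g0555200, the neighbours of PBZ1 described above, and both patterns held in each. Part of this count thus repeats loci that were singled out above after their values were seen. Of all tested loci, 18.6% had co-cultivated replicate 2 lowest of 6, 8.75% had replicate 3 highest of 6, and 1.88% had both. These patterns were chosen for counting after the values of the 5 tested immunity genes were seen. Among those 5, PBZ1 and PR1a had both and CEBiP had replicate 2 lowest, so these genes are no test of the patterns. The chitinases, enzymes that cut fungal cell walls, were the effectors with a matched name. Cht1 had 28.3, 16.4 and 67.8 CPM in co-cultivated replicates 1, 2 and 3, against 57.5, 34.8 and 38.9 CPM in the control libraries, and Cht3 had 12.1, 5.04 and 19.6 CPM in the co-cultivated libraries against 8.20, 7.72 and 10.1 CPM in the control libraries. Cht8 had 43.5, 12.3 and 112 CPM beside the fern and 85.4, 28.9 and 214 CPM without it, so its control boxes also differed by 7.42 times. Cht2 had 763, 398 and 638.5 CPM in the co-cultivated libraries and 399, 163 and 884 CPM in the control libraries. Of the 12 effector loci, 0 were called by edgeR or limma-voom, and DESeq2 called 1 higher and 1 lower. At an unadjusted edgeR p under 0.05, 1 was higher and 1 lower. Over all tested loci, DESeq2 called 5.95% higher and 3.84% lower, and 10.2% were higher and 10.2% lower at that edgeR threshold. The log2 fold changes of the chitinases ran from −0.97 for Cht8 to 0.50 for Cht3. Over all 12 loci they ran from −1.19 for Os05g0375400 to 3.32 for Os12g0628600. Os12g0628600 had 21.1, 11.1 and 125.9 CPM in the co-cultivated libraries and 5.32, 6.71 and 3.797 CPM in the control libraries, with no overlap (edgeR adjusted p = 0.103, DESeq2 adjusted p = 0.0135, and up to 0.265 over the alternatives).

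**Figure D5:**
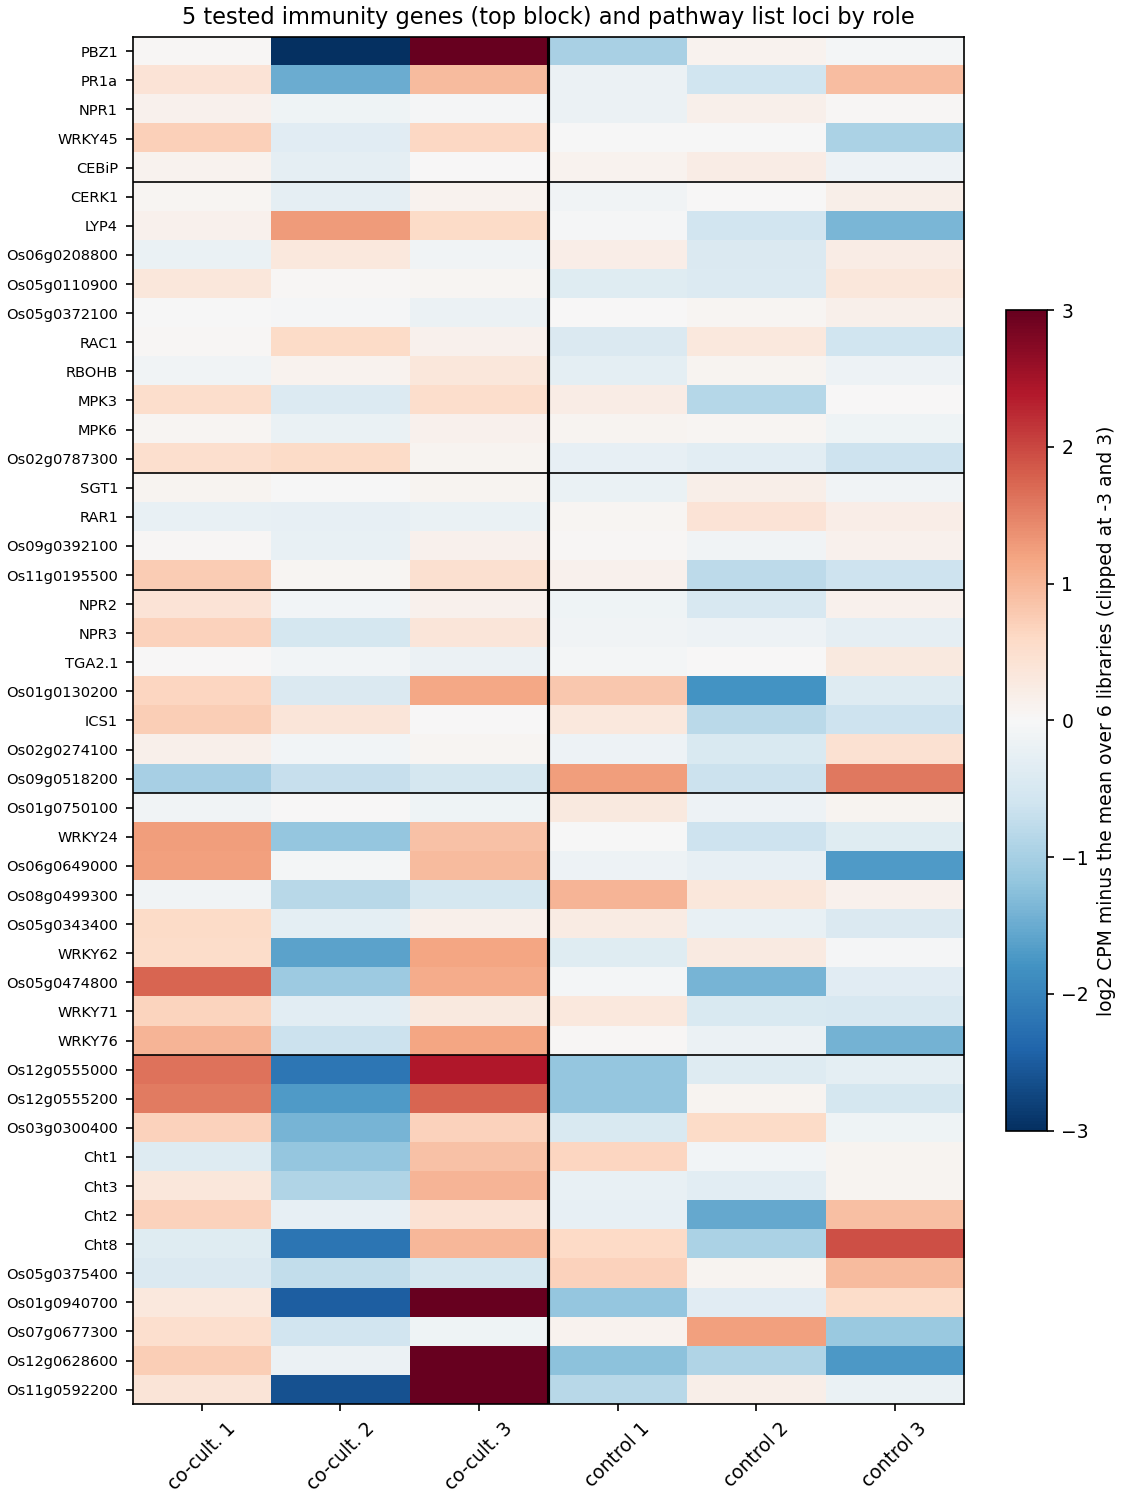
Log2 CPM minus each locus's mean over the 6 libraries, for the 5 tested immunity genes (top block) and the 42 tested pathway loci in blocks from chitin perception to PR effectors, with co-cultivated libraries left of control libraries. The blue cells of co-cultivated replicate 2 and the red cells of replicate 3 stand out in the PR effector block at the bottom. In that block replicate 2 is the lowest co-cultivated library for all 12 loci, an order held by 36.2% of all tested loci.

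Likeness of pattern was measured as the root mean square (RMS) difference in log2 CPM, each gene centred on its mean, over the 6 libraries and among the 47 tested loci of both lists. NPR1 was closest to SGT1 and CERK1 (RMS difference 0.093 and 0.123), and CEBiP to MPK6 and NPR1 (0.095 and 0.157), which are all steady transcripts. WRKY45 was closest to NPR3 (0.317) and to a locus without a matched name, Os05g0343400 (0.319). PR1a was closest to Cht3 (0.442) and WRKY62 (0.559). The closest to PBZ1 were Os11g0592200 and Os01g0940700, without matched names (0.403 and 0.505, beside 2.04 for the RMS of PBZ1 itself). Os11g0592200 held only 21, 1 and 161 counts in co-cultivated replicates 1, 2 and 3, and 8, 17 and 14 in the control libraries. Its low value in co-cultivated replicate 2 thus rests on 1 count and depends on the prior count of 2. The RMS of NPR1 and CEBiP themselves was 0.1205 and 0.168. CERK1, at 0.1232, was thus no nearer to NPR1 than a flat line would be. Steady genes lie close together under this measure whether or not they share a pattern, and all distances are descriptions over 6 libraries.

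Tissue markers were read in the same libraries. The summed level of 3 root markers (LSI1, LSI2 and a locus listed as RCc3) ran from 3216 to 5241 CPM in the co-cultivated group and from 1454 to 2272 CPM in the control group. All 3 stood higher in every co-cultivated library than in any control library (edgeR adjusted p = 0.147 for LSI1, 0.123 for LSI2 and 0.117 for the locus listed as RCc3). The same held at 12.4% of all tested loci. The markers differed in their order of boxes. LSI1 had 1116, 974 and 598 CPM and LSI2 had 1477, 1378 and 800.1 CPM in co-cultivated replicates 1, 2 and 3, so both were highest in replicate 1. The locus listed as RCc3 had 1592, 2888 and 1818 CPM in those libraries and was highest in replicate 2. The summed level of 4 leaf markers was 1.95, 5.92 and 22.2 CPM in co-cultivated replicates 1, 2 and 3, and 9.24 to 22.28 CPM in the control group. Of these 4, RBCS, the small subunit of Rubisco, held at most 5 counts in any library and 0 in co-cultivated replicate 1 and control replicates 1 and 2. Most of each sum came from the marker CAB1R, with 19.11 CPM in co-cultivated replicate 3 and 19.45 and 19.83 CPM in control replicates 1 and 3. Co-cultivated replicate 3 had the highest leaf marker sum and the highest PBZ1 level of its group. Control replicates 1 and 3 had leaf marker sums of 21.1 and 22.28 CPM and PBZ1 levels of 12.2 and 23.3 CPM. Co-cultivated replicate 2 had the largest total of all libraries. The part of tissue make-up in the differences between boxes was not tested.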

How the data were processed

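Poly-A RNA from 6 rice root tip samples was sequenced as strand-specific (dUTP) libraries, per the labels' protocols. The authors deposited 1 table of estimated counts per locus; per the submitters' processing notes they used the build IRGSP-1.0 and DESeq2 1.28.1, while for the aligner, counter, strand setting and filters the sources used here give nothing. Between 1343 and 1409 loci per library held values more than 1e-06 from a whole number, so the deposited estimated counts were rounded before each count test. Columns were tied to samples by their labels, with 0 columns left over.

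Loci passing edgeR's filterByExpr entered a two-sided quasi-likelihood test on TMM-scaled counts (edgeR 4.0.16, R 4.3.3) with no covariate but group, and p-values were adjusted over all 24615 loci; intervals are 95%. Log2 CPM used a prior count of 2. Alternatives were DESeq2 1.42.0, limma-voom (limma 3.58.1), other scalings and filters, a robust fit, a replicate block and leaving out each library. The fit was tested on simulated data. Chi-square divided by loci, taken for each pair of same-group libraries, was 23.0 to 118, far above sampling noise, so none was counted as a repeat.

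The 6 genes and the lists were chosen with earlier results of these data known. A symbol was matched when a RefSeq gene table (assembly ASM3414082v1) placed it on the named chromosome, within 5 percentage points of the locus's rank and in order. Named pathway genes were to be called genes, the smallest 2 p per role and the nearest patterns; other named genes were chosen after their values were seen. Promoters and proteins were not analysed here.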

Additional observations from a re-analysis of the deposited data

How the results depend on the processing

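The 0 calls among the 5 tested immunity genes held in all 16 alternatives. Over all loci, 360 were called higher and 288 lower; DESeq2 called 1464 and 945, and leaving out each library in turn gave 56 to 361 higher and 83 to 493 lower. Of the pathway list, 0 and 0 were called; DESeq2 gave 4 higher and 2 lower, the fit with no count filter 1 lower, and leaving out a library 0 to 1 higher and 0 to 2 lower. The log2 fold change of PBZ1 ran from −0.58 to 3.21 when 1 library was left out, that of PR1a from −0.46 to 0.64 and that of NPR1 from −0.10 to 0.055. PR1a was at −0.093 with limma-voom, and NPR1 at 0.0072 with RLE size factors and 0.005 with DESeq2. WRKY45 and CEBiP kept their direction in all 16 alternatives, over 0.41 to 0.93 and −0.21 to −0.01. For the reversals the cause was not tested. Same-numbered libraries of the groups deviated together with correlations of 0.057, 0.146 and 0.174 across loci, and 4 of 6 correlated best with their own number. These values do not settle whether the numbers pair the boxes, and the main fit left the boxes unpaired. With a replicate block 403 loci were higher and 296 lower, 1 and 2 of them in the pathway list, with PBZ1 at 0.84 and PR1a at −0.095. A prior count of 0.5 or 5 moved the range of log2 CPM of each tested gene by less than its spread between replicates. At these depths, 0 counts of PR1b do not show that it was silent.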

Other observations

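Of the pathway loci without a matched name, those with the smallest unadjusted p, singled out after their values were seen, had groups that did not overlap. Os05g0375400 had 239.5, 195 and 225 CPM in the co-cultivated libraries and 522, 344 and 633 CPM in the control libraries. It stood at −1.19 on the log2 scale (edgeR adjusted p = 0.0562), and the adjusted p ran from 0.000579 with DESeq2 to 0.187 without co-cultivated replicate 1. Os02g0787300 had 89.8, 95.6 and 68.0 CPM in the co-cultivated libraries and 54.0, 51.2 and 41.6 CPM in the control libraries. It stood at 0.79 on the log2 scale (edgeR adjusted p = 0.0719), and the adjusted p ran from 0.00543 with DESeq2 to 0.242 without co-cultivated replicate 1.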
